A study of Mus musculus with 11 samples.

Results

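The Gpr35 locus was taken as the stretch of mouse chromosome 1 from 100 kb before the start of Gpr35 to 100 kb past its end, chr1:92850865-93086391 in GRCm38 (mm10), a window of 235527 bp. Of the 94963 accessible regions in the deposited list, 26 overlapped this window, and they are named R1 to R26 here in the order of their positions. Each was assigned to the gene with the nearest annotated transcript start, which gave Gpr35 itself 6 regions, R15 to R20. Gpr35 was chosen by measured values of these samples, since the study singled it out from its own accessibility and expression results, and those results were not used here. The data came from ATAC-seq, in which the Tn5 transposase cuts and tags open chromatin, on MPC2 cells, mesenchymal progenitors of mouse origin with conditional immortalisation, grown as a single clone. The 11 cultures were undifferentiated MSCs given DMSO vehicle (n = 3), undifferentiated MSCs given FG-4592 (n = 3), osteocyte cultures after 3 weeks of differentiation given vehicle (n = 2) and osteocyte cultures given FG-4592 (n = 3). FG-4592 (Roxadustat), an inhibitor of the prolyl hydroxylases that mark HIF for destruction, was used at 50 µM, and treatment lasted 48 h. The deposited list carries 1 pooled level per region for all 11 cultures together, on a scale read as the average log2 CPM, the reads of a region scaled to the size of the library. No value per culture was analysed here, so the values below have no replicate error, depth per culture is unknown, and neither the effect of FG-4592 nor that of differentiation could be compared at this locus.

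Gpr35 encodes a G protein-coupled receptor that signals through Gi/o and G12/13 proteins and arrestins, and kynurenic acid, a product of tryptophan breakdown, and lysophosphatidic acid have been proposed as its natural ligands. The receptor is best known from gut and immune cells. HIF binds the hypoxia response element (HRE), whose core is ACGTG or GCGTG, AP-1 binds TGACTCA or TGAGTCA, while the RUNX factors of the bone lineage and the TEAD factors of the Hippo pathway bind sites built on TGTGGT and GGAATG. Every motif was searched on both strands, and a match is only a description of the letters present.

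The 3 stretches printed here are shown because R18 and R19 had the highest levels among the Gpr35 regions, each covered an annotated Gpr35 start, and these were the Gpr35 regions that held an HRE core. All are on the plus strand of GRCm38 and hold no exon base. The first lies in the upstream portion of R18 (chr1:92971934-92972233), the second is the 250 bases before the RefSeq start inside R18 (chr1:92972869-92973118), and the third lies in R19 before the Gpr35-203 start (chr1:92978586-92978885). Capitals mark HRE cores and AP-1 sites, and the second stretch held neither.
R18: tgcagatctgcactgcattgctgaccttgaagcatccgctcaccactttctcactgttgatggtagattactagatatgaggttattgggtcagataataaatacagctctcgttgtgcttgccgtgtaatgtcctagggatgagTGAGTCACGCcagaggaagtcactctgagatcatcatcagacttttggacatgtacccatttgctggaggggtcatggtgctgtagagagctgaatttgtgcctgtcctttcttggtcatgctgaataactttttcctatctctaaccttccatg
R18 before the start: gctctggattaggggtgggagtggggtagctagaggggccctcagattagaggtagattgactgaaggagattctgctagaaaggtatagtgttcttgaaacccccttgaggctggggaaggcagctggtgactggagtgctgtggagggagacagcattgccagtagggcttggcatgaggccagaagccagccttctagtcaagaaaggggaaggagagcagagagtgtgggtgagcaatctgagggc
R19: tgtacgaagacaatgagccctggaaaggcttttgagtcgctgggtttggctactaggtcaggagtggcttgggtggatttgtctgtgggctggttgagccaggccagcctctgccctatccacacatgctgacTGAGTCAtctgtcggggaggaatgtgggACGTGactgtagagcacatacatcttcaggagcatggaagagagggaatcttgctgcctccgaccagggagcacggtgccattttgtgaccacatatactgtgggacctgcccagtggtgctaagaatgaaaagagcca
In R18 the AP-1 site (chr1:92972079-92972085) and the HRE core (chr1:92972084-92972088) shared 2 bases, so the capitals form 1 run, and the HRE core began 1038 bp before the start of Gpr35-201. In R19 the AP-1 site (chr1:92978719-92978725) and the HRE core (chr1:92978747-92978751) lay 21 bp apart, 203 and 175 bp before the Gpr35-203 start at their first bases. A TEAD core, ggaatg, lay between them, 11 bp past the AP-1 site and 4 bp before the HRE core, and a RUNX core followed at 87 bp before the start. The 4 motifs of R19 fell within 122 bp.

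Across the window the pooled levels were those of an ordinary stretch of the list, while the regions were closely spaced. The median level of the 26 regions was 2.10 on the log2 CPM scale (quartiles 1.23 and 3.05, range 0.47 to 6.19), against 2.12 for the whole list, and 13 of the 26 were above the list median. Their median width was 468.5 bp against 460 bp. Both differences from the list were small and took the other sign with flanks of 50 kb, where the medians were 2.52 and 459 bp. At the list's minimum width of 200 bp there were 3 regions (11.5%), against 4.65% of the list. Regions covered 13774 bp, or 5.85% of the window, against 2.19% of chromosome 1 and 2.06% of the genome. The density was 11.04 regions per 100 kb, where chromosome 1 had 3.82 and the median window of a protein-coding gene had 6.15. The window's summed level was 244.1 CPM, of which the 3 highest regions held 55.5%, and all 3 were promoters of neighbours upstream of Gpr35. The 14 regions before the gene summed to 183.6 CPM, the 6 inside it to 35.5 CPM and the 6 past it to 25.0 CPM. No region straddled the window's edges: the nearest one outside lay 10239 bp before it, at a level of 2.21, and the next past it lay 14008 bp away, at 3.17 and nearest to a Kif1a start, while the outermost ones inside, R1 and R26, were at 2.50 and 1.91.

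**Figure D1:**
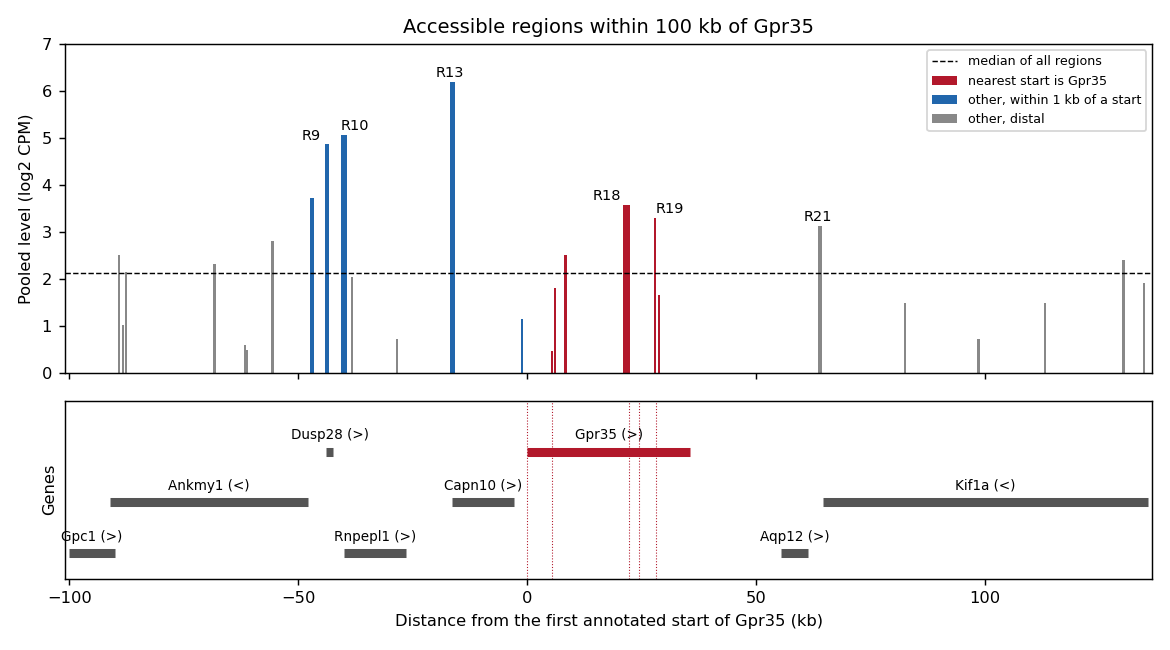
Pooled level (log2 CPM) of the 26 regions against distance in kb from the first annotated Gpr35 start, with the protein-coding genes below (the sign in brackets is the strand; dotted lines are the 5 Gpr35 starts). Bars narrower than 0.5 kb are drawn 0.5 kb wide. The highest bars are R13, R10 and R9, upstream of Gpr35, its own regions reach 3.58 at R18, and no bar stands between R20 and R21.

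Gpr35 (ENSMUSG00000026271, plus strand, chr1:92950865-92986391, 35527 bp) has 5 annotated starts for 6 transcripts in GENCODE vM21, and 3 of the 5 starts lay inside a region. R15 covered the start of Gpr35-206 at position 92956164, R18 that shared by Gpr35-201 and Gpr35-205 at 92973122, and R19 that of Gpr35-203 at 92978922. The starts of Gpr35-204, the most upstream, and of Gpr35-202 had no region within 1000 bp. Their nearest regions were R14, 1097 bp away, and R18, 2030 bp away. The levels at the covered starts were 0.47 for R15, 3.58 for R18 and 3.29 for R19, and that of R15 was the lowest of the 26 regions. All 6 Gpr35 regions were within the gene, from 92955981 to 92979709, with levels from 0.47 to 3.58 (median 2.16), widths from 200 to 1549 bp (median 407 bp) and a sum of 35.5 CPM, or 14.6% of the window. R18 and R19 held 61.2% of that sum. The pooled list does not tell which transcript was made in which culture.

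**Figure D2:**
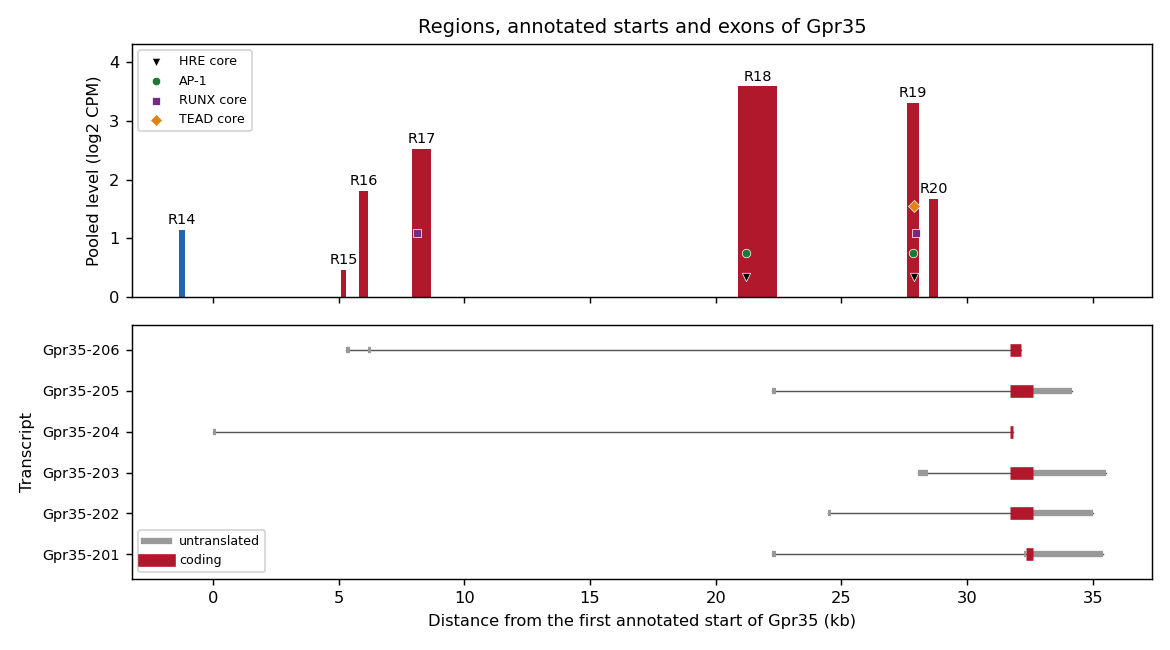
Upper panel, pooled level (log2 CPM) of R14 and of the 6 Gpr35 regions against distance in kb from the first Gpr35 start, each bar as wide as its region, with symbols (at arbitrary heights) for the motifs found in the Gpr35 regions. Lower panel, exons of the 6 transcripts, coding parts tall and untranslated parts low. R18 and R19 are the Gpr35 regions with an HRE core and an AP-1 site, and the coding exons have no region over them.

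R18 (chr1:92971769-92973317) was the widest of the 26 regions and was low for its width. It spanned 1549 bp at a level of 3.58, above 78.1% of the list, but the 2883 regions of the list within 10% of its width had a median of 5.36, and only 1.80% of them were lower. The 2077 of these that, like R18, lay within 1000 bp of a start had a median of 5.60, with 0.48% lower. Among the 197 of those with a CpG ratio (observed over expected CpG) under 0.4, as R18 had, the median was 4.99 and 3.55% were lower. Per kb of width R18 had 7.72 CPM, where the list's median was 9.52. It covered exon 1 of Gpr35-201 and Gpr35-205, which is untranslated, with most of its length upstream of that start.

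R19 (chr1:92978487-92978945) differed from R18 in the opposite way, being high for its width. Its level was 3.29, lower than R18 by 0.29, in 459 bp, a width at the middle of the list. The 9755 regions within 10% of that width had a median of 2.04, and 95.9% of them were lower. Against the 1448 near a start the median was 2.11 with 91.6% lower, and against the 938 of those with a CpG ratio under 0.4 it was 2.09 with 93.5% lower. R19 had 21.4 CPM per kb, above 85.6% of the list, while R18 was above 30.3% on that scale. It took in the first bases of exon 1 of Gpr35-203, which are untranslated.

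**Figure D3:**
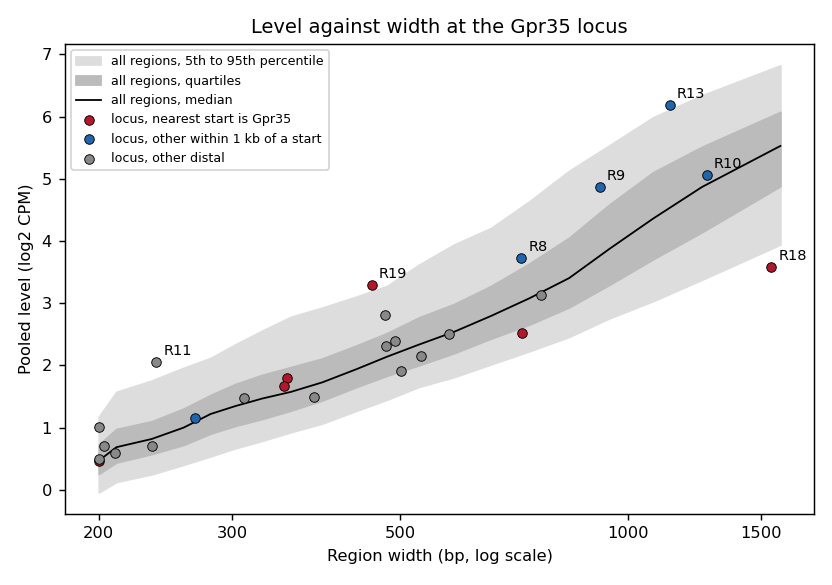
Pooled level (log2 CPM) against width (bp, log axis) for the 26 regions (points), over the median, quartiles and 5th to 95th percentiles of the whole list in 20 classes of width. R18 lies under the grey band at 1549 bp, and R11 at 238 bp, R19 at 459 bp and R13 at 1137 bp lie above its upper edge.

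The other 4 Gpr35 regions had levels near those of their widths or below. R15 (chr1:92955981-92956180) had 183 bases before the Gpr35-206 start and the rest in the untranslated exon 1 of that transcript. It was at the minimum width of 200 bp with a level of 0.47, above 5.30% of the list and at a difference of -0.10 from the median of its width. R16 (chr1:92956687-92957041), in the first intron of Gpr35-206, had 1.80, or 0.25 above the median of its width. R17 (chr1:92958799-92959523), an intronic region 2997 bp past the Gpr35-206 start, had 2.52, a difference of -0.49 from the median of its width, with 19.6% of such regions lower. R20 (chr1:92979359-92979709), in the intron just past exon 1 of Gpr35-203, had 1.67, or 0.13 above the median of its width. R19 and R20 were 413 bp apart, and R15 and R16 were 506 bp apart. None of the 4 held an HRE core or an AP-1 site, and R17 held 1 RUNX core.

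The coding sequence of Gpr35 (chr1:92982568-92983488) had no region over it. It lay in the largest gap of the window, 34686 bp from the end of R20 to the start of R21, which was longer than 86.6% of the gaps between neighbouring regions in the list. R20 ended 2859 bp before the first coding base, and R21 began 28005 bp past the end of the gene. The same gap held the only annotated start of Aqp12, which encodes an intracellular aquaporin of the pancreas, and the pseudogene Gm18697.

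The highest levels of the window were at the promoter regions of Capn10, Rnpepl1 and Dusp28, upstream of Gpr35, and these 3 regions were richer in CpG than the Gpr35 regions. The other 2 promoter regions upstream, R8 and R14, had CpG ratios of 0.16 and 0.27, inside the range of the Gpr35 regions. R13 (chr1:92933935-92935071), at the starts of Capn10, a calpain protease, and over an exon of the antisense transcript 9430060I03Rik, had the highest level at 6.19, above 98.4% of the list and 1.67 above the median of its width. It alone held 29.9% of the window's CPM. R10 (chr1:92910223-92911495), shared by Rnpepl1, an aminopeptidase-like gene, and the antisense 5033417F24Rik, was at 5.06, or 0.19 above the median of its width. R9 (chr1:92906709-92907627), at Dusp28, an atypical phosphatase, was at 4.86, or 1.14 above. R8 (chr1:92903492-92904215), 947 bp before the start of Ankmy1, an ankyrin repeat gene on the minus strand, was at 3.73, or 0.72 above. R14 (chr1:92949501-92949768), in an intron of 9430060I03Rik near its start, was at 1.15, or 0.06 above. R14 was also the only region in the 10 kb before Gpr35. Counting sense and antisense partners apart is not possible here, since ATAC-seq has no strand.

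R9, R10 and R13 had CpG ratios of 0.86, 0.98 and 0.80 and a GC content of 64.4%, 68.7% and 58.5%. The promoter regions of the whole list had medians of 0.56 and 56.8%. The 6 Gpr35 regions had CpG ratios from 0.07 to 0.29 and a GC content from 48.7% to 55.1%, and R18 and R19, at 0.09 and 0.27, were CpG-poor for regions near a start: 5.35% and 27.0% of promoter regions in the list were lower. In all, 10 of the 26 regions (38.5%) lay within 1000 bp of a start against 22.7% of the list, and 5 of the 10 were R15, R16, R18, R19 and R20. The median level of the 10 was 3.44 against 3.89 for promoter regions in the list, and that of the 16 distal ones 1.98 against 1.89.

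**Figure D4:**
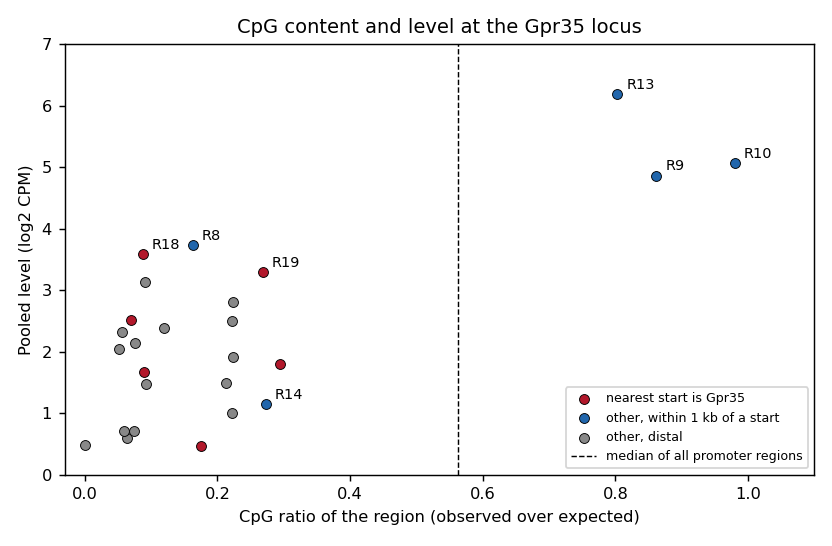
Pooled level (log2 CPM) of the 26 regions against their CpG ratio (observed over expected); the dashed line is the median of all promoter regions in the list, 0.56. R9, R10 and R13 lie right of the line with the highest levels, and the other 23 regions, the Gpr35 ones among them, lie left of it at ratios under 0.4.

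Of the distal regions not assigned to Gpr35, the 5 highest were R21, R7, R1, R25 and R4. R21 (chr1:93014396-93015163) was intergenic, between the ends of Aqp12 and Kif1a, at 3.13, a difference of -0.01 from the median of its width. R7 (chr1:92894965-92895442), in an Ankmy1 intron, was at 2.81 and 0.69 above, with 86.4% of such regions lower. R1 (chr1:92861456-92862035) and R4 (chr1:92882294-92882773), also in Ankmy1 introns, were at 2.50 and 2.31, and R25 (chr1:93080847-93081338), in an intron of Kif1a, a kinesin motor of neurons, at 2.39. The 5 regions assigned to Kif1a summed to 16.2 CPM and the 3 assigned to Gpc1, a glypican proteoglycan, to 12.1 CPM. Neither gene had a region within 1000 bp of its starts inside the window, and both have further starts outside it. By summed level of assigned regions, Gpr35 (35.5 CPM) came after Capn10 (72.9 CPM) and Rnpepl1 (39.1 CPM) and before Dusp28 (29.1 CPM) and Ankmy1 (28.1 CPM), while Aqp12 had R21 alone (8.73 CPM).

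HRE cores were found in 8 of the 26 regions, or 30.8% (Wilson 95% interval 16.5 to 50.0%, which covers counting error only and takes neighbouring regions as independent), against 46.2% of the list and 42.8% of regions of like width. The 14 HRE cores were in R7 (2), R9 (1), R10 (2), R13 (5), R18 (1), R19 (1), R22 (1) and R25 (1). AP-1 sites were in 3 regions, R8, R18 and R19, or 11.5% (4.00 to 29.0%), against 22.1% of the list. RUNX cores were in 12 (46.2%, 28.8 to 64.5%, list 42.7%) and TEAD cores in 10 (38.5%, 22.4 to 57.5%, list 31.5%). An HRE core followed by C was in R13 alone (3.85%, 0.68 to 18.9%, list 18.6%), and the palindromic E-box CACGTG was in 0 of 26 (Wilson upper bound 12.9%, list 9.16%). The window held a larger share of promoter regions than the list, so the shares are also given by class: HRE cores were in 5 of the 10 promoter regions, against 72.3% of promoter regions in the list, and in 3 of the 16 distal ones, against 38.6%. AP-1 sites were in 3 of the 10, against 16.5%, and in 0 of the 16, against 23.7%. Of the 6 Gpr35 regions, 2 held an HRE core, the same 2 an AP-1 site, 2 a RUNX core and 1 a TEAD core. Among regions as wide as these the shares were 46.0%, 21.4%, 41.6% and 31.1%.

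An HRE core and an AP-1 site together were found in no other region of the window than R18 and R19. In the list 10.6% of regions held both, as did 23.2% of regions as wide as R18 and 8.76% of those as wide as R19. The motifs overlapped or abutted, as in R18, in 0.60% of the list and in 1.28% of regions as wide as R18. They were at most 21 bp apart, as in R19, in 1.80% of the list and in 1.54% of regions as wide as R19. R19 was the only one of the 26 with all 4 motifs, which 2.56% of the list and 0.95% of regions as wide as R19 had. These spacings and combinations were looked at after the matches were seen. Among 32851 promoters of 300 bp in RefSeq for GRCm38, 43.8% held an HRE core, 5.20% an AP-1 site and 1.88% both. Gpr35 has 2 entries there: that inside R18 (chr1:92972869-92973168) held none of the 4 motifs, and that at R19 (chr1:92978653-92978952), of which 293 bases lay in the region, held 1 of each.

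Beside the same window at the other 21937 protein-coding genes, the Gpr35 window was high in its number of regions and less so in its summed level. It had more regions than 83.6% of them (median 15, quartiles 7 and 22) and a higher sum than 65.3% (median 171.8 CPM). It was also rich in annotated starts, with 39 against a median of 24. Among genes with a number of starts within 20% of that, it had more regions than 79.3% and a higher sum than 52.3%. Gpr35 had more assigned regions than 86.8% of genes (median 1) and a higher assigned sum than 64.8% (median 16.4 CPM). The study names Egln1, which encodes the HIF prolyl hydroxylase PHD2, and Ero1l, an oxidoreductase of the endoplasmic reticulum, beside Gpr35. Their windows had 15 and 12 regions, at 6.23 and 5.09 per 100 kb, with median levels of 3.65 and 3.20, median widths of 922 and 508.5 bp and sums of 307.1 and 283.6 CPM. Egln1 had 5 assigned regions summing to 92.0 CPM, the highest at 5.11, and Ero1l had 2 summing to 42.3 CPM, the highest at 5.30. The Gpr35 window held more regions than either at a lower median and sum, but its regions were also narrower in the median, at 468.5 bp, and levels rise with width across the list, so the medians were not compared at equal width. The highest region assigned to Gpr35 was at 3.58. Over the whole windows the highest levels were 6.19 for Gpr35, 5.86 for Egln1 and 6.16 for Ero1l. HRE cores were in 3 of the 5 Egln1 regions, 1 of the 2 Ero1l regions and 2 of the 6 Gpr35 regions, where 46.2% of the list held one. Among regions as wide as the Gpr35 ones the share was 46.0%, and none was computed for the widths of the Egln1 and Ero1l regions.

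**Figure D5:**
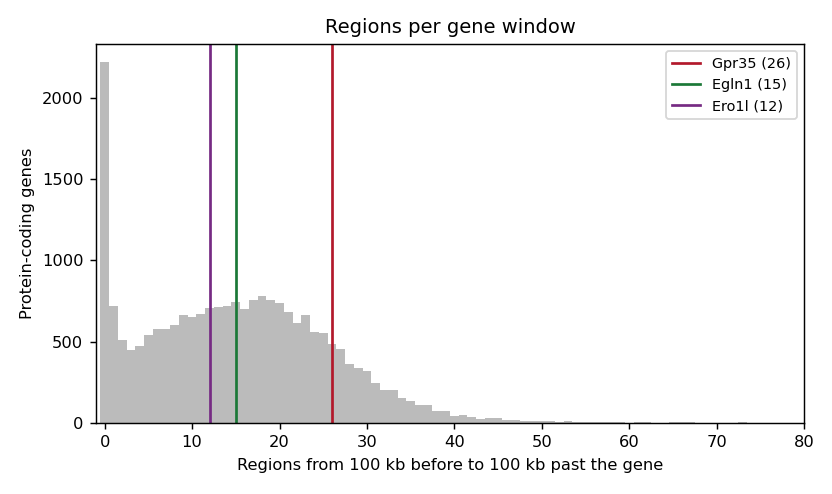
Number of protein-coding genes (vertical axis) by the number of regions from 100 kb before to 100 kb past the gene (horizontal axis, which stops at 80; the few windows with more are not drawn). Lines mark Gpr35 at 26, Egln1 at 15 and Ero1l at 12, where the median gene had 15.

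The 29 genes listed around the receptor were picked by hand, some from the same families, while the interval given here takes them as independent. Of these, 21 (72.4%, Wilson 95% interval 54.3 to 85.3%) had a region within 1000 bp of a start, where 64.1% of protein-coding genes did. Gpr35's own highest such region, R18, was above 22.3% of genes' highest promoter regions (median 5.03), which differ in width. Of the 8 genes that make kynurenic acid or break down tryptophan, 4 had one: Got2 at 5.72, Kyat3 at 5.45 and Aadat at 2.51, which can transaminate kynurenine to kynurenic acid, and Afmid at 4.81, which makes kynurenine. Ido1 and Tdo2, which begin the pathway, Kmo, which diverts kynurenine, and Kyat1, another such transaminase, had none. Cxcl17, a chemokine once proposed as a ligand, had none and no assigned region. Of 8 G protein and arrestin genes, 7 had one, from Gnai3 at 4.73 to Gna13 at 6.11 and Arrb2 at 6.46, while Gnai1 had none and no region in its whole window. Of 8 related receptors 6 had one. Lpar1 at 5.30 and Lpar6 at 4.60, receptors for lysophosphatidic acid, were above R18, Lpar2 at 3.48, Lpar4 at 3.08, Lpar3 at 1.76 and Lpar5 at 0.75 were below it, and Gpr55 and Hcar2 had none. All 4 Wnt genes had one: Gsk3b, a kinase of the pathway, at 8.40, the transcription factor Lef1 at 5.35, Ctnnb1, which encodes beta-catenin, at 4.90 and the feedback inhibitor Axin2 at 3.99. A promoter region in the pooled list does not show in which of the 4 groups it was open. It can also be nearest to the start of another gene. For Lef1 and Afmid the assigned regions summed to 5.66 and 26.8 CPM, less than the promoter region alone held, so that region was assigned elsewhere.

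The genes whose assigned regions were most like those of Gpr35 in number, median level and log2 sum, each scaled by its SD over the 15625 genes with a region, were Wnt8b, Cngb1, Nog, 1190005I06Rik and Slc13a4. Each had 6 regions, with sums from 31.9 to 37.0 CPM against 35.5 CPM for Gpr35, and the summed scaled difference ran from 0.03 to 0.10. This likeness is over 3 pooled summaries and not over samples.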

How the data were processed

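ATAC-seq libraries of 11 MPC2 cultures had been made by the authors, who aligned paired-end reads to mm10 with Bowtie2, removed duplicates with Picard 2.17.8, called peaks with MACS2 2.2.7.1, merged peaks across samples, removed blacklisted regions, counted cuts in them and normalised the counts with TMM in edgeR 3.24.3, after leaving out a sample with quality problems. Whether cut sites were shifted for the Tn5 offset is not given in the sources used here. The deposited list holds region coordinates and a single value per region, taken as the average log2 CPM over cultures: 460 values are below 0, and 2 to the power of the values sums to 1012761 over the list. No test between groups was possible, and depth per culture is unknown. Coordinates were made 1-based and read against GRCm38.p6 and GENCODE vM21; 0 regions ran past a chromosome end. Regions of like width are those within 10% of a region's width, and a promoter region lies within 1000 bp of an annotated start. Levels rise with width, and the merging of peaks sets both. Scripts used Python 3.11.15, pandas 2.3.3, numpy 2.4.6 and scipy 1.17.1, and motif search and assignment were tested on simulated data. Regions are named if assigned to Gpr35, if near a start, or if among the 5 highest others; R11, R22 and R26 are mentioned outside this rule, for their level, motif or position. Gpr35, the gene list and the motifs were chosen with earlier results of these data known.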

Additional observations from a re-analysis of the deposited data

How the results depend on the processing

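Of 58 alternatives over 11 results, 35 left the value within 1.5 times the one given or, for shares and ranks, inside its 95% interval, and 23 moved it further. For ranks among 21937 genes, whose windows can overlap, that interval is narrow. A shift as small as that from 83.6% to 82.7% (autosomal genes) therefore counted as moved. The small differences from the list in median level and width are not stable to the flank: with 50 kb the medians were 2.52 and 459 bp, and with 20 kb they were 2.16 and 407 bp, so that the level was above the list's 2.12 and the width below its 460 bp. The AP-1 share, 11.5%, was 20% with 50 kb flanks and with regions at least 500 bp wide, 15.4% with the looser motif and 7.69% within the central 200 bp. No share of the list was computed for wide regions alone. With only regions at least 500 bp wide, the locus held 10 regions with a median level of 3.35 and a median width of 746.5 bp, 2 of them assigned to Gpr35 (R17 and R18), so that R19 was lost; the Gpr35 window then had more regions than 65.6% of genes and a higher sum than 59.8%. With flanks of 50 kb there were 15 regions, and the window stood above 80.9% of genes by count and 78.4% by sum. With flanks of 20 kb there were 8 regions summing to 110.7 CPM, and the window stood above 77.3% and 74.2%. By count it stood above 80.2% with regions within 500 bp joined, 82.7% of autosomal genes, 80.7% of genes on chromosome 1 and 79.3% of those with as many starts; by sum it stood above 63.5%, 67.9% and 52.3% of the last 3 sets. The share of regions with an HRE core was 3.85% when a following C was required, 0% for the E-box and 7.69% within the central 200 bp, for which no share of the list was computed, and it was 40% with 50 kb flanks and with regions at least 500 bp wide. No paired analysis was possible because every value is pooled over the cultures, and for the same reason no culture could be left out. The unknown depth per culture limits every level here.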

Other observations

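R11, a region of 238 bp over exon 1 of a noncoding Rnpepl1 transcript, had a level of 2.05, which was 1.21 above the median of its width with 97.0% of such regions lower. It was named after its value was seen. Of the 26 regions at the locus, 16 were above and 10 below the median of their width, and the difference had a median of 0.12 on the log2 scale.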
